A study of Mus musculus with 8 samples.

Results

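The 10 genes described here carry the insulin signal from the cell surface to the FoxO transcription factors: the receptors Insr and Igf1r, the adaptors Irs1 and Irs2, the phosphoinositide 3-kinase (PI3K) subunits Pik3r1 and Pik3ca, the kinases Akt1 and Akt2, and the factors Foxo1 and Foxo3. They were chosen by name, and every array probe whose transcript accession belongs to one of these genes was taken, which gave 16 of the 55681 probes. All 16 were tested. Their RNA was measured in brown adipose tissue (BAT) from mice with thoracic aortic constriction (TAC), which loads the left ventricle with pressure, and from mice with sham surgery (Sham), in which the mice went through the same operation without the constriction.

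All mice were male C57BL/6NCrSlc, kept at 23 °C on normal chow with a 12 h light and 12 h dark cycle, operated on at 11 weeks and 13 weeks old when BAT was taken. For the time since the operation, the labels state 2 weeks in 2 places and 4 weeks in another, and the ages fit 2 weeks. The labels list 4 separate samples per group, read here as 4 mice, each with 1 one-colour Agilent array, a glass slide on which each spot binds 1 transcript and shines with its amount. Scanner intensities were at hand for 3 Sham and 4 TAC arrays, and a deposited table of intensities for all 8. The 7 scanned arrays shared 1 slide, where Sham filled one row and TAC the other, and row and operation cannot be told apart. The paper's text does not report on these arrays.

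Insulin binds its receptor, which phosphorylates the Irs adaptors, which in turn recruit PI3K. The lipid made by PI3K activates Akt, and Akt phosphorylates FoxO factors and keeps them out of the nucleus. When insulin action is weak, FoxO enters the nucleus and raises genes such as Irs2 itself, while genes that insulin raises, among them those of fatty acid synthesis and the glucose transporter Slc2a4, are less used. In BAT this pathway supports glucose uptake and lipid synthesis. Much of its control is by phosphorylation, which an RNA array does not measure.

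The promoters of both adaptors are shown because their transcripts are compared below and because Irs2 is a known FoxO target. In a RefSeq table of the assembly GRCm38.p6, 9 of the 10 genes had a promoter (all but Insr), with 14 start sites between them. Each stretch below is the 250 bases before the start site, on the strand of the gene, with matches to 3 short motifs in capitals: the FoxO core GTAAACA, the insulin response sequence CAAAACAA and the E-box CACGTG, each searched on both strands. The Irs2 promoter lies at chr8:11008930-11009179 and the Irs1 promoter at chr1:82291440-82291689, both on the minus strand.
Irs2: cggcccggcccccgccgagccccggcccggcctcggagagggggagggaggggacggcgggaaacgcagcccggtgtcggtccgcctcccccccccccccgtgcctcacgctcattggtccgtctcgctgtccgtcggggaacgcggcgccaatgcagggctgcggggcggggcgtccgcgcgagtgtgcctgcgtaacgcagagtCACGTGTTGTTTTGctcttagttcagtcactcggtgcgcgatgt
Irs1: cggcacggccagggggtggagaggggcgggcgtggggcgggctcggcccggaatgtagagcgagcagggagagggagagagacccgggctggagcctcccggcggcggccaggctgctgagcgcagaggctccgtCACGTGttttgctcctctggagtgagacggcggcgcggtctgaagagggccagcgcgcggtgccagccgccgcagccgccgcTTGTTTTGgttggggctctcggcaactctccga
Both held an E-box and, on the opposite strand, the insulin response sequence, read here as TTGTTTTG. In Irs2 the pair stood side by side, at bases 207 to 212 and 213 to 220, and in Irs1 they stood apart, at 136 to 141 and 218 to 225. No other of the 14 member promoters held either motif. Over all 32851 promoters of the table, 2.21% held the insulin response sequence and 6.02% the E-box. The FoxO core was in 3.17% of all promoters and in 1 of the 14, an Akt1 promoter at chr12:112674885-112675134 on the minus strand.
Akt1: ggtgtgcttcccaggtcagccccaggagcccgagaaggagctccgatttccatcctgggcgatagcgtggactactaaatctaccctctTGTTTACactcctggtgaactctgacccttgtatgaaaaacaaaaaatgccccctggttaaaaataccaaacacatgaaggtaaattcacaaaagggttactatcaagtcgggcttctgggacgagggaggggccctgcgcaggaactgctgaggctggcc
A match is a description of letters and not a site shown to be bound in BAT.

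The tissue carried the transcripts its label names. All 6 brown adipocyte markers, Ucp1 among them, were well above background on all 7 scanned arrays. Their summed intensity in the table, in which 1 is the 75th percentile of the array, was 2976 to 3831 on the Sham arrays and 2331 to 3197 on the TAC arrays, lowest on TAC replicate 1. That array also stood apart in its 7 macrophage markers, all of them well above background on every scanned array, with a sum of 75.1 against 38.2 to 45.4 on the other TAC arrays and 45.9 to 49.9 on the Sham arrays. The 9 skeletal muscle markers, likewise all present, varied most, from 43.8 to 164 in Sham and from 54.8 to 257 in TAC. Since the arrays are of whole tissue, fewer cells of a type and less RNA per cell cannot be told apart. Between 54.5% and 64.3% of the spots of a scanned array were well above background.

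No member passed the test for a difference between TAC and Sham. The test was limma's linear model on log2 intensities of the 7 scanned arrays, adjusted over 33378 probes, those well above background on 3 arrays or more, and the smallest adjusted p of a member was 0.355, for Pik3r1. Across all probes the smallest was 0.0576, so limma called none, and the methods' t-test after the same adjustment also called none. At an unadjusted p under 0.05, no member probe was higher, against 4.38% of all probes, and 1 of 16 was lower, against 8.44%. Of the 16 probes 10 had a difference below 0, and the median over the 10 genes was -0.06 on the log2 scale, against -0.03 over all probes, of which 55.9% were below 0.

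**Figure D1:**
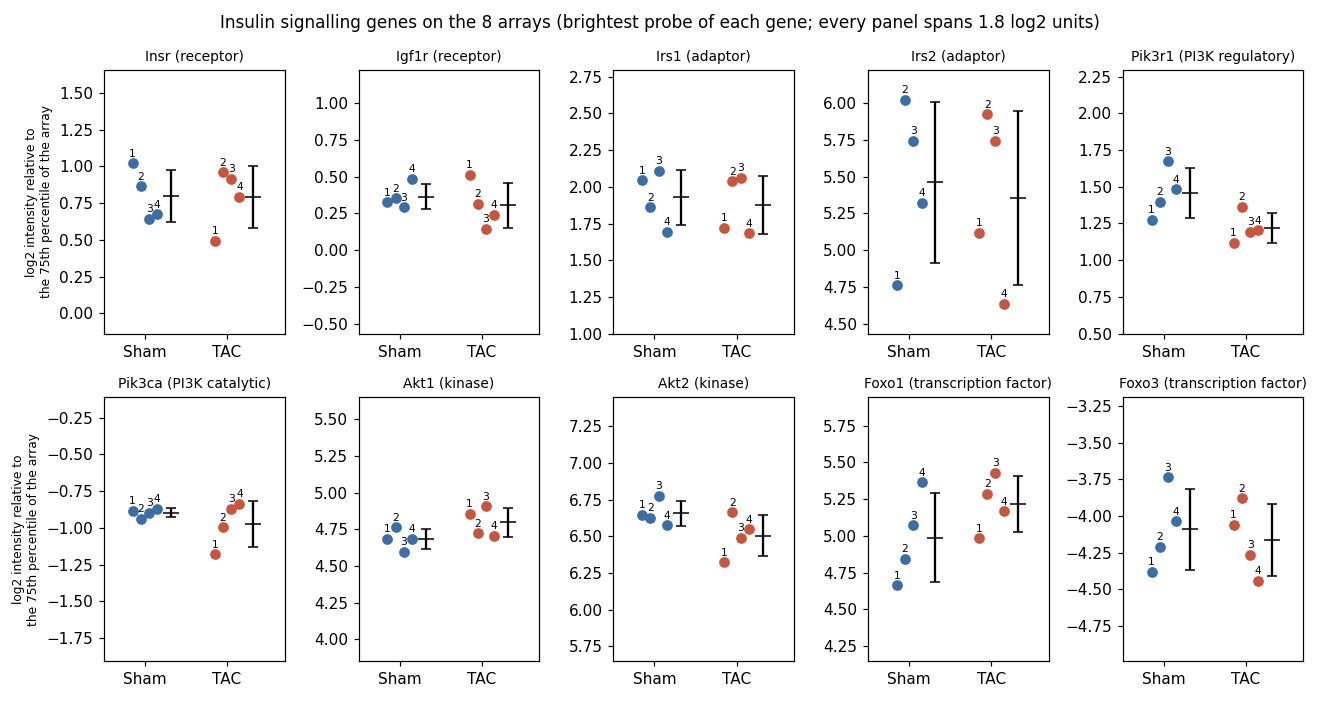
Level of each member gene on the 8 arrays, as log2 of the deposited intensity relative to the 75th percentile of the array, with the brightest probe of each gene. Dots are arrays, numbered by replicate, and bars are the mean ± SD of 4 arrays. The Sham and TAC dots overlap in every panel, and Irs2 has the widest spread.

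Levels below are from the table of 8 arrays, on a log2 scale on which 0 is the 75th percentile of the array, in the order of the replicates. Differences, with 95% confidence intervals, are log2 of TAC over Sham from the 7 scanned arrays. The level of one gene's probe cannot be set against that of another.

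Insr, the insulin receptor, had 3 probes. The brightest read 1.02, 0.87, 0.64 and 0.67 on Sham replicates 1 to 4 and 0.50, 0.96, 0.92 and 0.79 on TAC replicates 1 to 4. Its group means differed by 0.08 (-0.24 to 0.40, limma adjusted p = 0.820), and the exact permutation test over the 7 arrays gave p = 0.629. The other probes differed by 0.06 (-0.45 to 0.56) and by -0.13 (-0.47 to 0.21), so the 3 did not share a sign. All 3 had their lowest TAC value on TAC replicate 1, the array with high macrophage markers, whose part in this was not tested, and without it the differences were 0.18, 0.24 and -0.02. Over 8 arrays the brightest probe differed by -0.01. Igf1r, the receptor of insulin-like growth factor 1, read 0.33, 0.35, 0.29 and 0.49 in Sham and 0.51, 0.32, 0.15 and 0.24 in TAC. Its difference was -0.06 (-0.32 to 0.20), or 0.961 times the Sham level with an interval of 0.803 to 1.15.

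Irs2, the adaptor that FoxO raises, was the most variable member. It read 4.76, 6.02, 5.75 and 5.32 on Sham replicates 1 to 4 and 5.12, 5.93, 5.74 and 4.63 on TAC replicates 1 to 4. High and low arrays were found in both groups, which overlapped over nearly their whole range. The 8 arrays spanned 2.61-fold. The SD within groups was 0.57, a spread that 7.73% of all probes exceeded and that compares with a median of 0.19 over all probes. TAC was at 0.798 times the Sham level, with an interval of 0.463 to 1.38 (log2 difference -0.32, limma adjusted p = 0.696). The exact permutation test gave p = 0.429 over 7 arrays, and over 8 arrays, with Sham replicate 1 added, a difference of -0.11 and p = 0.743. The smallest p these tests can give is 0.0286. Over 8 arrays the log2 interval was -0.92 to 0.70. The 7 scanned arrays likewise bound Irs2 only loosely, from a fall to 0.463 times to a rise of 1.38-fold. With TAC replicate 4 left out the difference was -0.09.

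Irs1, the other adaptor, read 2.04, 1.86, 2.11 and 1.69 in Sham and 1.72, 2.04, 2.06 and 1.68 in TAC on its brighter probe. It differed by 0.00 (-0.35 to 0.35), with an exact permutation p of 0.971 over 7 arrays. The dimmer probe differed by -0.04 (-0.70 to 0.62). To ask whether the adaptors differed unequally between the groups, the difference Irs2 minus Irs1 was taken on each array. It was lower in TAC by a log2 value of -0.33 over 7 arrays (exact permutation p = 0.400, 0.533 after adjustment over 4 such contrasts) and -0.06 over 8 arrays (exact permutation p = 0.943). The SD of that within-array difference was 0.60 in Sham and 0.41 in TAC.

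Pik3r1, which encodes the regulatory subunits of PI3K, was the member nearest to the threshold. It read 1.27, 1.40, 1.67 and 1.48 in Sham and 1.12, 1.36, 1.19 and 1.20 in TAC. On the 7 scanned arrays every TAC value was below every Sham value, as for 10.4% of all probes, and no member was higher without overlap, against 5.59%. The difference was -0.28 (-0.53 to -0.03), or 0.823 times the Sham level, with a limma adjusted p of 0.355. Sham replicate 1, not among the scanned arrays, lay inside the TAC range, so over 8 arrays no member separated the groups (background 3.52% higher and 6.29% lower) and Pik3r1 differed by -0.24 (-0.48 to 0.00). Leaving out each array gave -0.35 to -0.20, and -0.25 without TAC replicate 1. Pik3ca, the catalytic subunit, read -0.88, -0.94, -0.90 and -0.87 in Sham and -1.18, -0.997, -0.87 and -0.84 in TAC, and differed by -0.05 (-0.31 to 0.20). Its TAC values were the more spread, with the lowest again on TAC replicate 1.

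Akt1 and Akt2, the kinases that act on FoxO, lay on opposite sides of 0. Akt1 was the steadiest member, with an SD within groups of 0.08 that 90.6% of all probes exceeded. It read 4.69, 4.76, 4.60 and 4.68 in Sham and 4.86, 4.72, 4.91 and 4.71 in TAC. Its difference was 0.13 (-0.08 to 0.34, limma adjusted p = 0.554), which puts TAC between 0.947 and 1.27 times the Sham level. Akt2, the isoform most tied to insulin-stimulated glucose uptake, was lower in TAC on all 3 of its probes, by -0.14 (-0.40 to 0.12), -0.11 (-0.38 to 0.15) and -0.18 (-0.42 to 0.06), with limma adjusted p-values of 0.610, 0.680 and 0.498. The brightest read 6.65, 6.63, 6.78 and 6.58 in Sham and 6.32, 6.66, 6.49 and 6.55 in TAC. TAC replicate 1 was again the lowest on all 3, and without it the differences were -0.08, -0.05 and -0.13. Probes of 1 gene share the same RNA samples and are not replicates. The within-array difference Akt2 minus Akt1 was lower in TAC by -0.27 over both 7 and 8 arrays (exact permutation p = 0.229 and 0.114), and with adjustment over the 4 contrasts the exact permutation p was 0.514 and 0.457.

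Foxo1, the main FoxO factor of adipose tissue, read 4.66, 4.85, 5.07 and 5.37 in Sham and 4.98, 5.29, 5.43 and 5.17 in TAC on its brighter probe. It differed by 0.14 (-0.24 to 0.51, limma adjusted p = 0.735; exact permutation p = 0.457), and over 8 arrays by 0.23 (exact permutation p = 0.257). Leaving out 1 array at a time moved it between 0.0075, without Sham replicate 2, and 0.27, without Sham replicate 4. The dimmer probe differed by 0.02 (-0.49 to 0.53). Foxo3 was dim, well above background on 5 of 7 arrays (3 Sham and 2 TAC), and read -4.38, -4.21, -3.74 and -4.04 in Sham and -4.06, -3.88, -4.27 and -4.44 in TAC, with a difference of -0.15 (-0.56 to 0.26), which lay between -0.27 without Sham replicate 2 and -0.015 without Sham replicate 3. The within-array difference Foxo1 minus Foxo3 was higher in TAC by 0.29 (exact permutation p = 0.257) and Insr minus Igf1r by 0.14 (exact permutation p = 0.543), with adjusted values of 0.514 and 0.543. None of the 4 contrasts passed the threshold over 7 or 8 arrays.

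**Figure D2:**
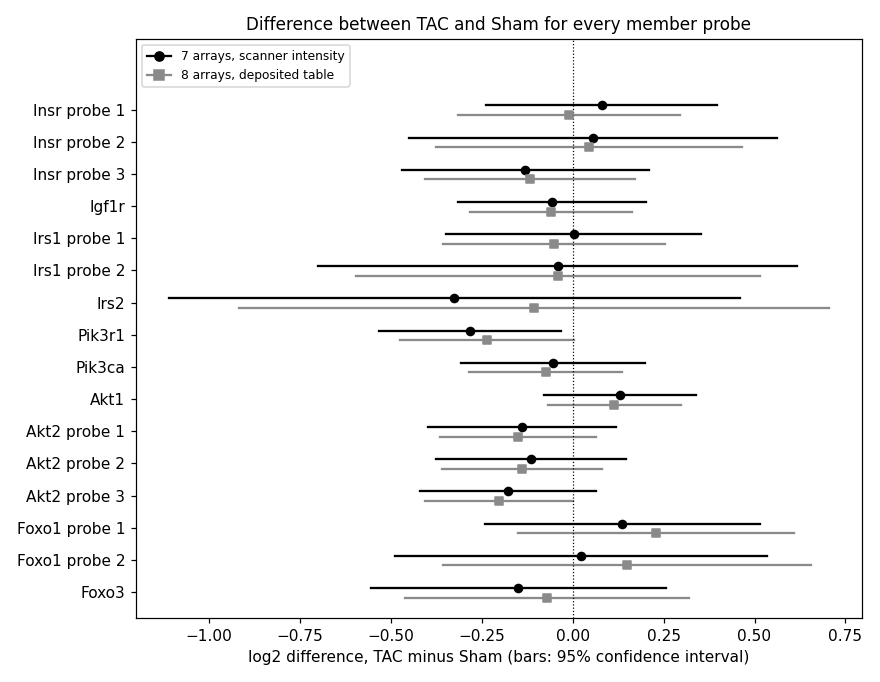
Log2 difference between TAC and Sham for each of the 16 member probes, with 95% confidence intervals, from the 7 scanned arrays (black circles) and the table of 8 arrays (grey squares). All intervals cross 0 except that of Pik3r1 on 7 arrays, which ends at -0.03, and the Irs2 intervals are the widest.

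In the rest of the pathway no gene passed the test either. Of 46 further genes of the pathway, from its ligands and inhibitors to the target of rapamycin (mTOR) kinase, all tested, 1 was higher and 6 were lower at an unadjusted p under 0.05, or 2.17% and 13.0% against 4.38% and 8.44% of all probes, and limma called none after adjustment. The median was -0.05, and 27 were below 0. On the 8 arrays 2 were higher and 6 lower at an unadjusted p under 0.05, against 4.64% and 9.57% of all probes. On the 7 scanned arrays 4 were higher and 9 lower without overlap, beside 5.59% and 10.4% of all probes. Over 8 arrays 2 were higher and 5 lower without overlap, beside 3.52% and 6.29%. Each gene is given by its brightest probe.

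Among inhibitors, Deptor, which binds and restrains mTOR, had the smallest p. It read 3.20, 3.50, 4.04 and 4.11 in Sham and 3.23, 3.04, 3.04 and 3.06 in TAC, and the 3 scanned Sham arrays were all above the TAC arrays, while Sham replicate 1 was not. The difference was -0.77 (standard error 0.16, limma adjusted p = 0.197), and -0.62 over 8 arrays. Socs3, a suppressor of cytokine signalling that also blocks insulin receptor substrates, read -0.33, -0.28, -0.36 and -0.46 in Sham and -0.64, -0.62, -0.74 and -1.14 in TAC. Here the 4 Sham and 4 TAC arrays did not overlap, as for 6.29% of all probes in that direction. The Socs3 difference was -0.41 (standard error 0.14, limma adjusted p = 0.331). Grb10, an adaptor that inhibits the receptor, differed by 0.26, or 0.10 with normexp background correction, and Ptpn1, the phosphatase PTP1B, by 0.00. None of these 4 brakes passed the threshold.

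Upstream, Igf2r, which clears insulin-like growth factor 2, was the only one of the 46 higher at an unadjusted p under 0.05. It read 2.70, 2.67, 2.55 and 2.50 in Sham and 2.84, 2.78, 2.84 and 2.80 in TAC, for a difference of 0.26 (standard error 0.08, limma adjusted p = 0.289). Its groups did not overlap on 8 arrays, as for 3.52% of all probes in that direction. Irs4, an adaptor of the Irs family, was lower by -0.34 (limma adjusted p = 0.259), also without overlap on 8 arrays, as for 6.29% of all probes. Igf1, the ligand of Igf1r, differed by 0.32 with values from 0.62 to 1.86 in Sham and 0.49 to 1.66 in TAC, highest on Sham replicate 1 and TAC replicate 1, and 1 of its 4 probes had the opposite sign. Its difference was 0.04 over 8 arrays, 0.14 without TAC replicate 1 and 0.52 without TAC replicate 4. Downstream, Mtor itself was lower by -0.27 (limma adjusted p = 0.330), with Sham values of 2.15, 2.37, 2.36 and 2.28 and TAC values of 1.91, 1.99, 2.17 and 2.12. Gsk3b, the glycogen synthase kinase that Akt inhibits, differed by -0.20 (-0.12 without Sham replicate 3) with no overlap on 8 arrays, and Pdpk1, the kinase that activates Akt, by -0.04.

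Genes that FoxO factors raise when insulin action is weak went both ways, and no test was run on them as a group. Of 31 such genes 29 were tested, with Igfbp1 and Mxi1 too dim. At an unadjusted p under 0.05, 1 was higher (3.45%) and 2 were lower (6.90%), shares close to those of all probes, and none passed after adjustment in limma. The median was 0.00, with 13 genes above and 16 below 0. On the 7 scanned arrays the groups did not overlap for 3 of its genes, all lower in TAC, where 10.4% of all probes were lower and 5.59% higher without overlap. On 8 arrays that held for 1 gene, beside 6.29% of all probes. Relative to the average of the Sham arrays, the mean of the 29 genes ran from -0.07 to 0.11 in Sham and from 0.02 to 0.16 in TAC, so the groups overlapped. The FoxO core shown above was in 5 of 35 promoters of the list (14.3%), against 3.17% of all promoters. The insulin response sequence was in 2 (5.71%, against 2.21%) and the E-box in 3 (8.57%, against 6.02%). These promoters belong to the 29 of its 31 genes with one in the RefSeq table, and the counts are of letters with no test.

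No metabolic FoxO target named here passed the test. Pck1, which in fat supplies glycerol 3-phosphate for triglyceride, read 8.74, 8.83, 8.90 and 8.94 in Sham and 8.22, 8.87, 8.96 and 8.82 in TAC. Its difference was -0.16, and 0.01 without TAC replicate 1, the array with the low value. Pdk4, which shuts the pyruvate dehydrogenase complex, read 7.52, 7.50, 7.64 and 7.80 in Sham and 7.47, 7.88, 8.08 and 7.93 in TAC, and differed by 0.21 (limma adjusted p = 0.600), or 0.33 without TAC replicate 1. Txnip, which curbs glucose uptake, differed by 0.21 and Pik3ip1, which restrains PI3K, by 0.39, with limma adjusted p-values of 0.553 and 0.583. Without TAC replicate 1 these differences were 0.12 and 0.24, and Pik3ip1 differed by 0.62 without TAC replicate 3.

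The cell cycle and stress targets went both ways. Cdkn1b, an inhibitor of the cell cycle, differed by 0.00, Ccng2, a cyclin of resting cells, by -0.17 (0.02 without TAC replicate 1), and Bcl6, a repressor, by 0.12. The antioxidant enzymes Sod2 and Cat were lower by -0.28 (standard error 0.09, limma adjusted p = 0.317) and -0.35 (standard error 0.12, limma adjusted p = 0.322). Sod2 read 8.65 to 9.08 in Sham and 8.63 to 8.68 in TAC, and Cat 3.63 to 3.94 and 3.27 to 3.64, so that both overlapped once Sham replicate 1 was counted. Eif4ebp1, which holds back translation, differed by -0.34, or -0.22 without TAC replicate 1, and did not overlap on 8 arrays. Cited2, a transcriptional coregulator, was the only one higher at an unadjusted p under 0.05. It read 1.60, 1.38, 0.38 and 0.81 in Sham and 2.43, 1.59, 1.19 and 1.75 in TAC, with overlap, and differed by 0.90 (standard error 0.33, limma adjusted p = 0.349). Trim63, a muscle ubiquitin ligase named after its values were seen because it had the largest difference of the list, was higher by 0.93 with an interval of 2.14 on either side, and all 9 skeletal muscle markers also had differences above 0, with a median of 0.998. The part of muscle in the Trim63 value was not tested.

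Most genes that insulin raises were on the low side in TAC. Earlier results of these data had already shown low lipid synthesis genes, so the list is not independent evidence of its direction. Of its 16 genes, all tested, 15 had differences below 0 and the median was -0.53. At an unadjusted p under 0.05, 8 were lower, or 50% against 8.44% of all probes, and none was higher. Limma called none after adjustment. On 9 of them the 7 scanned arrays did not overlap, beside 10.4% of all probes, and on 10 the 8 arrays did not, beside 6.29%. The mean of the 16 genes was at -0.51 to -1.49 on the TAC arrays relative to the Sham mean and at -0.20 to 0.24 on the Sham arrays. TAC replicate 1 was the lowest, and without it the median of the list was -0.43 and 9 genes were lower at an unadjusted p under 0.05.

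Enzymes of fatty acid synthesis led this list. Acly, which makes cytosolic acetyl-CoA, read 7.09, 7.46, 8.35 and 8.11 in Sham and 5.76, 6.50, 5.74 and 6.31 in TAC, a difference of -1.88 (standard error 0.28, limma adjusted p = 0.196). Acaca, acetyl-CoA carboxylase, was lower by -1.72 (standard error 0.27, limma adjusted p = 0.196), and Me1, the malic enzyme that supplies NADPH, by -1.88 (standard error 0.41, limma adjusted p = 0.197). Thrsp, a regulator of lipid synthesis, was lower by -0.62 (standard error 0.12, limma adjusted p = 0.197). The groups of these 4 genes did not overlap on 8 arrays. Fasn, fatty acid synthase, named after its values were seen, had the largest difference, -2.94, with an interval of 2.26 on either side (limma adjusted p = 0.314). It read 5.98, 6.38, 6.74 and 6.37 in Sham and 0.81, 4.98, 3.66 and 4.72 in TAC, by far the lowest on TAC replicate 1.

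Slc2a4, Srebf1 and Hk2 were also on the low side, short of the threshold. Slc2a4, the insulin-responsive glucose transporter, read 7.42, 7.41, 7.74 and 7.48 in Sham and 7.21, 7.40, 7.32 and 7.24 in TAC. In the table all TAC arrays lay below all Sham arrays, the nearest of them at 7.40 and 7.41, and in the scanner values the groups overlapped. Its difference was -0.24 (standard error 0.11, limma adjusted p = 0.426). Srebf1, the factor through which insulin turns on lipid synthesis, differed by -0.30 and Hk2, a hexokinase, by -0.35, with limma adjusted p-values of 0.462 and 0.536 and overlapping groups. Without Sham replicate 3 the differences of Slc2a4, Srebf1 and Hk2 were -0.13, -0.19 and -0.23, and Hk2 differed by -0.22 without TAC replicate 1 and by -0.56 without Sham replicate 2. Beside these values, all 6 brown adipocyte markers had differences below 0, as did 55.9% of all probes, and their median was -0.39. The differences were uneven: -2.48 for Elovl3, -1.10 for Dio2, -0.61 for Ucp1, -0.16 for Cox7a1, -0.15 for Zic1 and -0.11 for Cidea. The general adipocyte markers Adipoq, Fabp4 and Plin1 differed by 0.18, -0.10 and -0.35. The part of these markers in the values of the list was not tested.

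**Figure D3:**
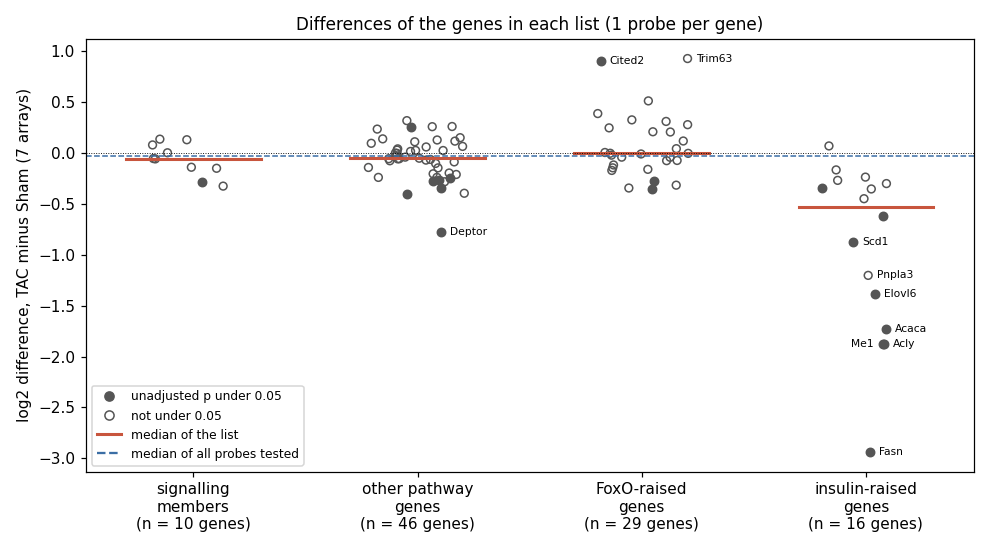
Log2 difference between TAC and Sham on the 7 scanned arrays for each gene of the 4 lists, 1 probe per gene. Filled points had an unadjusted p under 0.05, red lines are list medians (-0.06, -0.05, 0.00 and -0.53 from left to right) and the dashed line is the median of all probes tested, -0.03. The genes farthest from 0 are named.

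**Figure D4:**
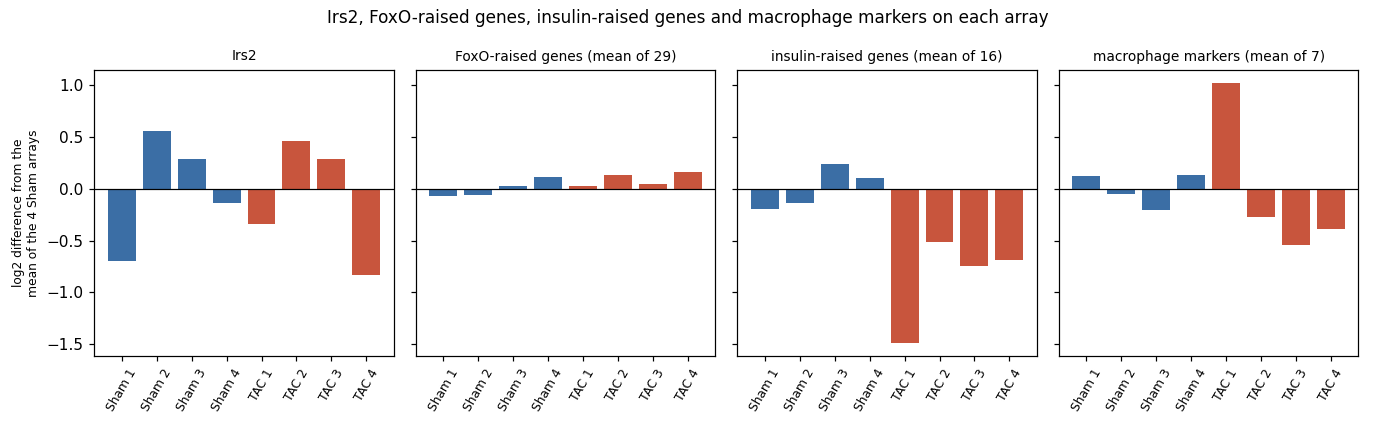
Irs2 and the means of the FoxO-raised genes, the insulin-raised genes and the macrophage markers on each of the 8 arrays, as log2 difference from the mean of the 4 Sham arrays. Irs2 goes both ways in both groups, the FoxO-raised genes stay between -0.07 and 0.16, the insulin-raised genes are lower on every TAC array, and the macrophage markers stand out on TAC replicate 1.

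Weaker insulin action, as described in the background above, goes with high Irs2, high FoxO-raised genes and low insulin-raised genes. On these arrays the insulin-raised genes were at the low side by count. None of them passed after adjustment in limma, and no test was run on them as a group. That list was chosen with its low lipid synthesis genes already known, so it is not independent evidence of its direction. Irs2 had a difference of -0.32 that did not pass the test, and the FoxO-raised genes had a median of 0.00, on which no test was run. Whether the 3 readouts differ from each other in their response was not tested. The 2.61-fold spread of Irs2 among 8 samples limits what its comparison can show, and no phosphorylation of Akt or FoxO was measured.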

How the data were processed

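RNA of BAT from 4 Sham and 4 TAC samples was labelled with Cy3. Spots were extracted by the authors with Agilent Feature Extraction 10.7.1.1. They deposited background-subtracted intensities of the spots of 7 arrays, and 1 intensity per probe for 8 arrays. On the brighter probes the latter equals the former over the 75th percentile of each array (99.79% or more of them on each array lay within 1% of a constant ratio). Dim probes were not part of this check. How it was made is not given in the sources used here. Sham replicate 1 was taken from that table only.

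Outlier spots were dropped, intensities were put on a log2 scale, each array's 75th percentile was subtracted, and spots sharing a probe were averaged. limma 3.58.1 (lmFit, eBayes; R 4.3.3) compared TAC with Sham with no replicate block. Tested were 33378 probes, well above background on 3 arrays or more and with values on 2 or more arrays per group, and p-values were adjusted by Benjamini-Hochberg. The step was checked on simulated arrays. Symbols came from a RefSeq table of GRCm38.p6, which named 94.1% of the probes with a RefSeq accession. In the lists the brightest probe stood for its gene. The number of arrays limits the precision, and p-values measure the spread between these samples, which nothing in the labels ties to separate mice.

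The members and lists were chosen with earlier results of these data known. Named were every member probe, the 4 genes with the smallest p of each list and a fixed set of regulators and targets, of which 1 is not reported here. Permutation tests were exact and two-sided. The alternatives were normexp (offset 50), other scalings and filters, the table, outlier spots retained, an intensity trend, the methods' t-test, a replicate block, array weights, each array omitted, and averaging a gene's probes.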

Additional observations from a re-analysis of the deposited data

Results flagged for a closer look

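An array that stood alone in its group of 4 was looked for among 112 groups (member probes, named genes and list means), where chance alone flags about 1 in 20, and it was found in 6. In each case the value given is the gap to the nearest of the other 3 arrays as a share of the range of the group. Among the 32 groups of member probes there was 1, the dimmest Insr probe in Sham, where Sham replicate 4 read -0.66 against -0.92 to -0.89 on the others (gap 0.854). Deptor on TAC replicate 1 read 3.23 against 3.04 to 3.06 (gap 0.904), Ccng2 on TAC replicate 1 -2.07 against -1.37 to -1.27 (gap 0.870) and Srebf1 on TAC replicate 2 1.36 against 0.86 to 0.95 (gap 0.830). The mean of the tested lymphocyte markers was at 0.71 on TAC replicate 1 against -0.41 to -0.25 on the other TAC arrays (gap 0.859), and that of the fibroblast markers at -0.21 on Sham replicate 3 against 0.05 to 0.09 (gap 0.889).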

How the results depend on the processing

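No member probe passed an adjusted p of 0.05 under any of the 22 settings of the limma fit and the methods' t-test, or with the mean of a gene's probes. The smallest adjusted p of a member was 0.279, and of any named probe 0.0746. Of 943 values of 44 named probes under the alternatives, 894 kept their sign and 49 changed it, none of them past the threshold. In the table of 8 arrays, with or without the replicate block, Insr probe 1 was at -0.0092 and Irs1 probe 1 at -0.051. Irs1 probe 1 was also at -0.039 under normexp, -0.027 under median centring, -0.012 in the table of the same 7 arrays, -6.3e-05 in the table with TAC replicate 1 left out and -0.019 for the mean of its probes, while the mean of the Insr probes was 0.0018 against -0.13 for probe 3. Foxo1 probe 2 was at -0.0057 under median centring, and under normexp Foxo3 was at 0.00022 and Ptpn1 at 0.0074. Quantile normalization gave 0.027 for Pdpk1, 0.0046 for Pck1 and 0.054 for Cdkn1b, and array weights 0.0048 for Cdkn1b. The table with TAC replicate 1 left out gave 0.10 for Irs1 probe 2, -0.14 for Igf1, 0.031 for Pck1 and 0.12 for Ccng2.

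With each array left out in turn, the ranges that crossed 0 were -0.055 to 0.24 for Insr probe 2, -0.092 to 0.12 for Irs1 probe 1, -0.23 to 0.14 for Irs1 probe 2, -0.10 to 0.019 for Pik3ca, -0.20 to 0.17 for Foxo1 probe 2, -0.044 to 0.028 for Ptpn1, -0.073 to 0.012 for Pdpk1, -0.24 to 0.010 for Pck1, -0.32 to 0.021 for Ccng2, -0.056 to 0.062 for Cdkn1b and -0.014 to 0.25 for Bcl6. Irs2 was between -0.52 and -0.09.

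The 1 member probe lower at an unadjusted p under 0.05, Pik3r1, became 0 in the table of 8 arrays, with no filter on dim probes, with the block on 7 or 8 arrays and in the table with TAC replicate 1 left out, and 0 to 1 with each array left out (0 without Sham replicate 3 or 4 or TAC replicate 1, 3 or 4). Of the other pathway genes, 1 was higher in the reported fit, 2 in the table of 8 arrays, with the filter on every array, with the intensity trend and under quantile normalization, and 3 with the block in the table. With each array left out the higher genes were 0 to 2 and the lower genes 2 to 6, with 2 lower without Sham replicate 3 and 0 higher without Sham replicate 4. Their median was -0.0086 under quantile normalization. Of the FoxO-raised genes, 1 was higher in the reported fit, 0 in the table of 8 arrays and by the methods' t-test, and 3 with the block on 7 or 8 arrays. The 2 lower ones became 1 under quantile normalization, with the block on 7 arrays and in the table with TAC replicate 1 left out. Both ran from 0 to 3 with each array left out, and both were 0 without Sham replicate 3. Their median was 0.051 under quantile normalization and 0.082 in the table with TAC replicate 1 left out. The median of the insulin-raised genes stayed between -0.67 and -0.42 in all alternatives, with 6 to 11 genes lower. The causes of these differences were not tested.

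Deviations of same-numbered arrays from their group means correlated by -0.03 to 0.00 on 7 arrays and by 0.02 to 0.27 on 8. The 0.27 was for replicate 1, whose Sham array was not among those scanned. Differently numbered arrays were not compared, so this check does not settle whether the replicate number marks pairs. With the replicate number as a block on 7 arrays, TAC replicate 1 has no partner, and Irs1 probe 2 was at 0.11, Pik3ca at 0.019, Pdpk1 at 0.012, Pck1 at 0.010 and Ccng2 at 0.021.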
